A study of Mus musculus with 8 samples.

Results

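The m6A peaks of RAW264.7 cells, a mouse macrophage line, were compared between cells given TCP and untreated cells. TCP is the labels' own abbreviation and is not spelled out there. The comparison takes in all 4432 peaks of the untreated control list and all 6981 peaks of the TCP list, together 11413 of the 20732 peaks in the 4 lists of the study. A TCP peak was called kept if it overlapped a control peak by at least 1 bp on the same strand and gained if it did not, and a control peak without such a TCP peak was called lost. Each peak was assigned to the gene that holds it on its strand. A gene was called gained, lost or kept when its peaks were in the TCP list alone, the control list alone or both.

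The study left RAW264.7 cells untreated or gave them 100 µM of TCP, TBP or TIP for 24 h, and sequenced RNA fragments pulled down with an anti-m6A antibody (MeRIP-seq). No genotype or other agent is given in the labels, and all groups are the same cell line. Each of the 4 conditions has 1 immunoprecipitated and 1 input library, and the inputs were not analysed here. There are no replicates, so no test or p-value is given. Every range in parentheses after a share is an exact Clopper-Pearson 95% interval, which covers counting error only and not the spread between cultures. Read counts are not part of the lists and the depth is therefore unknown. Where a list has no peak, no more can be said than that none was called. Fewer transcripts and less m6A per transcript cannot be told apart in these lists. Of 13 macrophage marker genes, 7 had a peak in the control list and 7 in the TCP list, and 0 of 38 marker genes of lymphocytes, granulocytes, mast cells, erythroid cells, fibroblasts, endothelium and epithelium had one in either. Csf1r, Spi1, Cd14, Mpeg1 and Laptm5 had peaks in both lists, Cd68 and Lyz2 in the control list alone, and Irf8 and Ptprc in the TCP list alone.

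N6-methyladenosine is a methyl mark on adenosines inside messenger and long non-coding RNA. It is written during transcription by a complex built around METTL3 and METTL14 with WTAP, VIRMA and RBM15, removed by the demethylases FTO and ALKBH5, and read by proteins of the YTH family that alter splicing, export, translation and decay. It is known to be densest near stop codons, in 3′ UTRs and in long internal exons, at adenosines in a short core sequence of which GGACT is a common form.

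Sequence could be read for the few peaks that lie whole inside RefSeq start-site windows (GRCm38.p6). The following 4 peaks of 25 bp in 5′ UTRs are shown because each holds the core sequence and together they cover the kept, gained and lost calls. They are written 5′ to 3′ on the transcribed strand, with GGACT in capitals.
Dnajc17, in both lists at the same position, chr2:119208763-119208787, minus strand: aattcaagtttGGACTagaaccatg
Rbbp6, control peak kept, chr7:122970615-122970639, plus strand: GGACTgaccgctactgactgcaccg
Ptpn4, gained, chr1:119837243-119837267, minus strand: gtcagaaatcggggctccgGGACTt
Ndufa8, lost, chr2:36049296-36049320, minus strand: ttggccagccaaaggGGACTtgaag
Dnajc17 encodes a J-domain co-chaperone, Rbbp6 a ubiquitin ligase that binds the retinoblastoma protein, Ptpn4 a tyrosine phosphatase and Ndufa8 a subunit of respiratory complex I. GGACT, searched on the transcribed strand alone, was present in 3 of 6 readable kept TCP peaks and 3 of 20 readable gained peaks. In the control list it was present in 3 of 6 readable kept peaks and 1 of 21 readable lost peaks. These counts take peaks of all widths. Among peaks of 25 bp it was present in 1 of 4 kept TCP and 1 of 12 gained peaks. The same counts were 2 of 4 for kept control and 1 of 17 for lost peaks. The first 25 transcribed bases of all 32851 windows, a match for the 25 bp peaks alone, held it in 2.64% (2.47 to 2.82). The readable peaks are too few to compare the groups, and they are all near gene starts.

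Gained peaks made up most of the TCP list. Of its 6981 peaks, 4509 were gained, 64.6% (63.5 to 65.7), and 2472 were kept. Of the 4432 control peaks, 1963 were lost, 44.3% (42.8 to 45.8), and 2469 were kept. Kept peaks were seldom identical: in 2287 pairs that matched each other alone, both ends were the same in 364 (15.9%), the TCP peak was wider in 1134 (49.6%) and the control peak was wider in 637 (27.9%). Many peaks without an overlap lay beside a peak of the other list. A control peak was within 100 bp of 1005 gained peaks, 22.3% (21.1 to 23.5). Another 1752 (38.9%) lay farther off in a gene that has a control peak, and 1701 (37.7%) lay in genes with none. For lost peaks the same 3 shares were 38.8%, 37.0% and 22.9%. With peaks up to 100 bp apart counted as shared, the gained share was 51.7% and the lost share 28.5%.

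Gained and lost peaks ranked low within their own lists. The authors' score per peak was used to rank peaks within a list, since its scale is not given in the sources used here. The median gained peak stood at percentile 63.2 of the TCP list, counted from the best score, and the median kept TCP peak at percentile 24.5. The median lost peak stood at percentile 62.6 of the control list and the median kept control peak at percentile 37.0. With the TCP list divided by rank into 4 steps of about equal size, 27.6% of peaks were gained in the best-scoring step, and 59.0%, 81.1% and 89.8% in those that follow. For lost control peaks the same shares were 20.3%, 37.2%, 53.1% and 67.7%. Gained and lost peaks were also narrower: the median width was 50 bp for gained, 75 bp for kept and 25 bp for lost peaks. Peaks of 25 bp, the smallest step of the lists, were 47.9% of gained and 17.7% of kept TCP peaks, and 53.4% of lost and 23.2% of kept control peaks. The gained share depended on list length: at the length of the control list 20.5% (18.8 to 22.2) of gained and 50.6% of lost peaks were of 25 bp. At the other end of the range, 123 gained peaks (2.73%) spanned over 500 bp of genome and held 65.6% of the length that gained peaks covered, so locations are given by number of peaks and not by length.

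**Figure D1:**
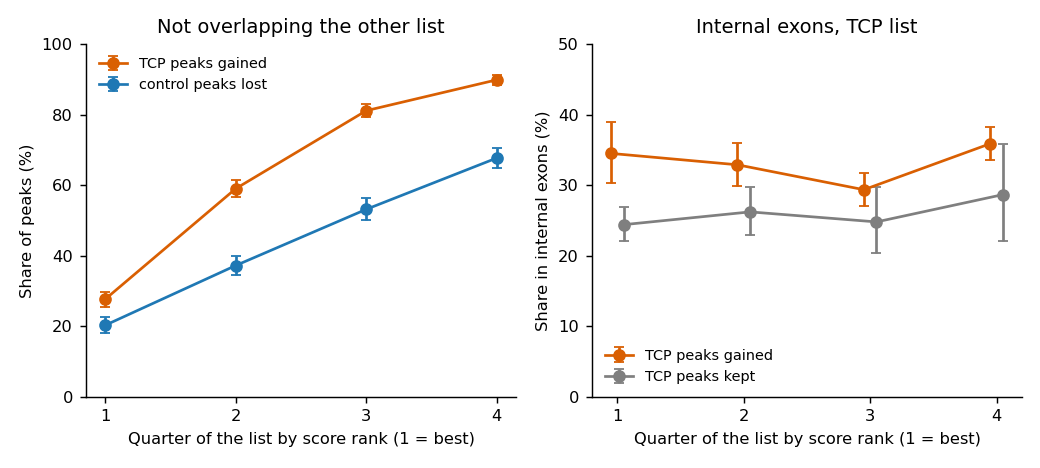
Left: share of TCP peaks gained and control peaks lost (%, vertical axis) in each of 4 steps of the list by score rank (horizontal axis). Right: share of gained and of kept TCP peaks in internal exons (%), by the same steps. Bars are exact 95% intervals over peaks. The gained share goes from 27.6% to 89.8%, while the internal exon share of gained peaks lies between 29.3% and 35.9% in all 4 steps, above that of kept peaks in each.

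Gained peaks lay in internal exons more often than kept peaks, and in 3′ UTRs and last exons less often. Internal exons, which are neither the first nor the last of their transcript, held 1485 of 4509 gained peaks, 32.9% (31.6 to 34.3), and 624 of 2472 kept TCP peaks, 25.2% (23.5 to 27.0). For 3′ UTRs the shares were 46.5% (45.0 to 48.0) of gained and 52.2% (50.2 to 54.2) of kept peaks. Last exons outside UTRs held 13.3% of gained and 16.2% of kept TCP peaks, and 5′ UTRs held 4.19% and 3.24%. The intervals of gained and kept peaks did not overlap for internal exons, 3′ UTRs and last exons. The control list showed the same side for internal exons: 29.8% (27.8 to 31.9) of lost peaks and 25.4% of kept control peaks lay in them. This was not so in every step of rank: in the best-scoring step of the control list the shares were 24.5% of lost and 26% of kept peaks, and in the other steps 25.9%, 31.0% and 32.7% of lost against 22.6%, 27.6% and 27.1% of kept peaks. Among control peaks over 500 bp, 20 of 36 lost and 11 of 15 kept peaks lay in internal exons. The 5′ UTR share was 5.40% (4.44 to 6.49) of lost and 3.12% of kept control peaks. Last exons held 12.6% (11.2 to 14.2) of lost and 16.6% (15.1 to 18.1) of kept control peaks. The intervals of gained and lost peaks overlap for internal exons.

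**Figure D2:**
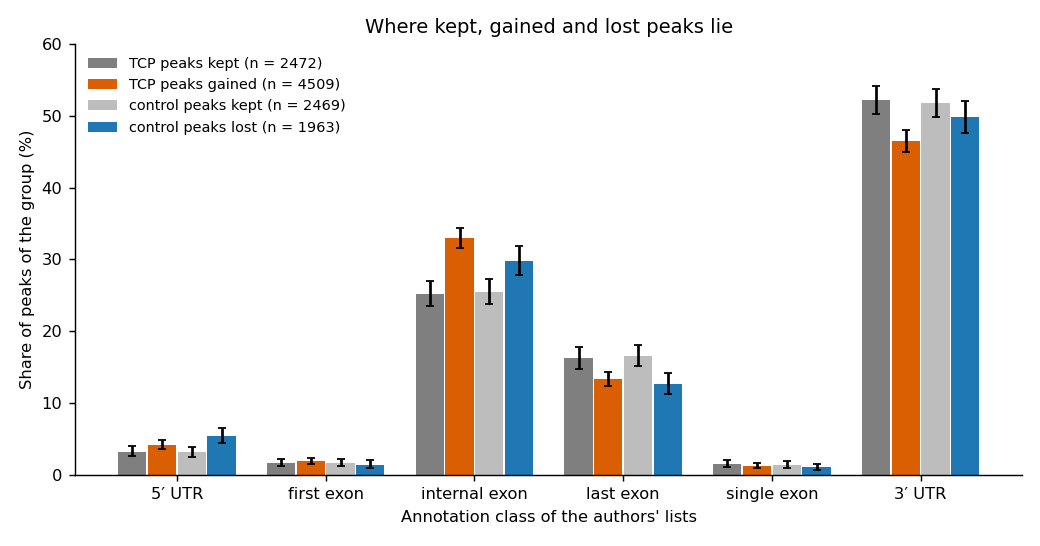
Share of peaks (%, vertical axis) in each annotation class of the authors' lists (horizontal axis), for kept and gained TCP peaks and kept and lost control peaks. Bars are shares of all peaks of the group and lines are exact 95% intervals over peaks. Gained peaks reach 32.9% in internal exons and 46.5% in 3′ UTRs, against 25.2% and 52.2% for kept TCP peaks.

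The internal exon share was higher for gained than for kept TCP peaks in each width class and in each step of rank. Among TCP peaks of 25 bp, 32.2% (30.2 to 34.2) of gained and 26.8% (22.7 to 31.2) of kept peaks lay in internal exons, intervals that overlap. Among peaks of 26 to 100 bp the shares were 30.5% (28.6 to 32.6) and 24.6% (22.4 to 26.9), and among peaks over 100 and up to 500 bp they were 45.9% (37.6 to 54.3) and 24.0% (20.5 to 27.8). Of peaks over 500 bp, 70.7% (61.9 to 78.6) of gained and 52.9% (35.1 to 70.2) of kept peaks were annotated to internal exons. In each of the 4 steps of the TCP list by rank the gained share was the higher, at 34.5%, 32.9%, 29.3% and 35.9% against 24.4%, 26.2%, 24.8% and 28.7% for kept peaks. In the lowest-scoring step the intervals overlap, at 33.5 to 38.3 for gained and 22.1 to 35.9 for kept peaks. They also overlap in the step before it, at 27.0 to 31.7 and 20.3 to 29.7. In the other comparisons, which use the same control library, internal exons held 29.8% (28.3 to 31.3) of peaks gained with TBP and 34.8% (32.4 to 37.3) of peaks gained with TIP, and 25.3% and 25% of kept peaks.

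Of the internal exon peaks, 1033 of 1485 gained and 470 of 585 lost lay in genes with a peak in both lists. Over all classes, 60.9% of gained and 75.4% of lost peaks lay in such genes. Of 2747 gained peaks in genes kept, 1033 lay in internal exons, 37.6% (35.8 to 39.4), and 41.9% in 3′ UTRs. Of the 1701 gained peaks in genes gained, 25.8% (23.7 to 28) lay in internal exons and 53.1% in 3′ UTRs. The 10 kept genes with the largest rise held 87 of the 1033 internal exon peaks, 8.42%, and without those genes the share was 35.8% (34.0 to 37.7). In all, 533 of 2081 kept genes (25.6%) had a gained peak in an internal exon, and 116 had at least 3. Distances from the end of 3′ UTR peaks to the gene's end were taken without peaks over 500 bp. The median was 1807.5 bp for peaks gained in genes kept and 1185 bp for those gained in genes gained. It was 1775 bp for kept TCP peaks, 1629 bp for peaks lost in genes kept and 708.5 bp for those lost in genes lost. Of lost peaks in genes kept, 31.8% (29.4 to 34.2) lay in internal exons. Among lost peaks in genes lost, 23.1% (19.3 to 27.3) lay in internal exons and 8% in 5′ UTRs.

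The TCP list brought in 1321 genes that had no control peak, 38.8% of its 3402 genes, and 398 genes with a control peak had none with TCP, 16.1% of 2479. Taken over the 3800 genes with a peak in either list, these are 34.8% and 10.5%. Most entered or left with a single peak: 1041 of the gained genes (78.8%) had 1 TCP peak, and 357 of the lost genes (89.7%) had 1 control peak. The more peaks a gene had in control, the less often it was lost: 23.5% of genes with 1 control peak, 6.18% with 2, 2.24% with 3 to 4, and 1 of 115 with 5 or more. That 1 gene was Canx. Lost genes were also short, with a median span of 18.0 kb, against 26.3 kb for gained and 30.5 kb for kept genes. In the shortest, middle and longest length class of genes, 23.0%, 14.5% and 11% of control genes were lost. Among genes with 1 control peak the shares were 29.4%, 21.9% and 18.3%, and the gained shares of TCP genes were 41.9%, 40.5% and 34.3%.

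The gained genes with the most TCP peaks had functions from replication to transcription. Nav1, a neuron navigator protein that binds microtubules, had 0 peaks in control and 6 with TCP, and 4 with TBP and 0 with TIP. Its strongest TCP peak lay in the 3′ UTR at chromosome 1, 135441105 to 135441154, rank 258 of the list. For 6 Nav1 peaks the nearest gene named in the authors' lists is another one. Their place in Nav1 rests on the host assignment used here. Gins3, a subunit of the replicative helicase, had 0 peaks in control, 5 with TCP, 2 with TBP and 2 with TIP. Zbtb7a, a zinc finger transcription repressor, had 0, 5, 1 and 0 in the same order. Of these 3 genes Gins3 alone had a peak with every compound. Mdn1, an ATPase of large ribosomal subunit assembly, had 0 peaks in control, 4 with TCP, 2 with TBP and 3 with TIP, and all 4 TCP peaks lay in internal exons. Iws1, a partner of the elongation factor SPT6, had 0, 4, 1 and 1, again with all 4 TCP peaks in internal exons. Ccar1, a transcriptional coactivator in cell cycle and apoptosis, had 0, 4, 5 and 0, also all in internal exons. In contrast, all 4 TCP peaks of Nfatc2, a transcription factor activated by calcineurin, lay in its 3′ UTR, and it had 1 peak with TBP and 0 with TIP. Fnbp1, a membrane-bending F-BAR protein, had 0, 4, 2 and 0 peaks, Ammecr1l 0, 4, 0 and 1, and Arhgdia 0, 4, 1 and 1. The control library is shared by the comparisons with the 3 compounds, so a 0 there counts for each of them.

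The lost genes with the most control peaks included several that process RNA. Canx, the ER chaperone calnexin, had 5 control peaks and 0 with TCP, while it had 3 with TBP and 3 with TIP. Its strongest control peak spanned chromosome 11, 50296261 to 50297107, in the 3′ UTR. Hnrnpl, a splicing regulator, had 4 control peaks, 0 with TCP, 2 with TBP and 1 with TIP. Dhx15, a helicase that takes spliceosomes apart, had 3, 0, 3 and 1 in the same order. Bcas2, a spliceosome subunit, had 3, 0, 2 and 0, and Prpf8, the core of the spliceosome, had 3, 0, 1 and 0. For these 5 genes the TCP list is the 1 list of the 4 without a peak, apart from TIP for Bcas2 and Prpf8. Anxa5, which binds phosphatidylserine, had 3, 0, 3 and 0. Atpif1, the inhibitor of the mitochondrial ATP synthase, had 3, 0, 0 and 0, with control peaks alone. The nuclear long non-coding RNA Malat1 had 3, 0, 0 and 1, and Pabpc1, which coats mRNA tails in the cytoplasm, and Actb, beta-actin, each had 2, 0, 0 and 0.

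**Figure D3:**
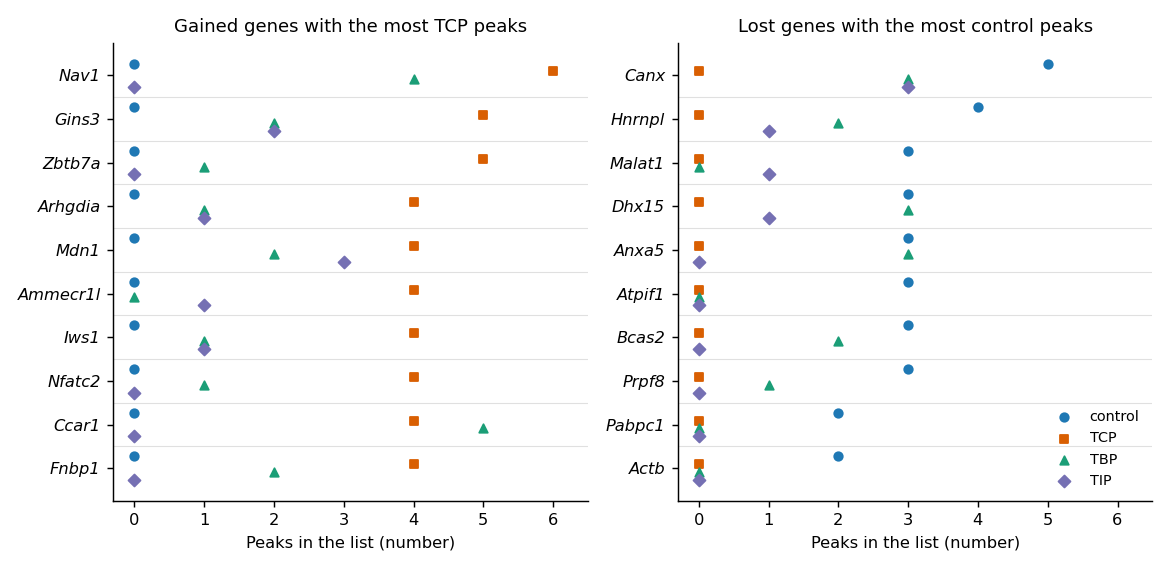
Number of peaks (horizontal axis) in the control, TCP, TBP and TIP lists for the 10 gained genes with the most TCP peaks (left) and the 10 lost genes with the most control peaks (right), 1 library per point. Nav1 has 6 TCP peaks and 0 in control, and Canx has 5 control peaks and 0 with TCP but 3 with TBP and 3 with TIP.

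Genes kept in both lists took 60.9% of gained peaks and 75.4% of lost peaks. The 2081 kept genes had 3915 peaks in control and 5185 with TCP, which is 1270 of the 2549 peaks by which the TCP list is longer. More peaks with TCP were found in 871 kept genes, 41.9% (39.7 to 44.0), fewer in 279, 13.4% (12 to 14.9), and the same number in 931. Over all 3800 genes, 57.7% had more and 17.8% fewer. At least 3 more peaks were found in 167 kept genes, and at least 3 fewer in 6. Peaks were exchanged as well as added: 847 kept genes (40.7%) had both a gained and a lost peak, 520 had gained peaks only, 126 lost peaks only, and 588 (28.3%) had every peak shared. In 443 kept genes (21.3%) no TCP peak overlapped a control peak.

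The 10 kept genes with the largest rise, unnamed genes passed over, included genes of mitosis, the cytoskeleton and the nucleus. Cenpf, a kinetochore protein, had 7 peaks in control and 22 with TCP, and 12 with TBP and 2 with TIP. Of its 22 TCP peaks 17 were gained, 16 of them in internal exons. Macf1, which links microtubules to actin, had 12, 23, 19 and 12 peaks in control, TCP, TBP and TIP, with 15 of its 16 gained TCP peaks in internal exons. Mki67, the proliferation antigen Ki-67 that coats mitotic chromosomes, had 25, 34, 27 and 24, and all 21 of its gained peaks lay in internal exons although 13 control peaks were lost. Aspm, a spindle pole protein, had 1, 8, 5 and 2, with all 7 gained peaks in internal exons. Tpr, of the nuclear pore basket, had 1, 8, 3 and 6, and none of its 8 TCP peaks overlapped its control peak. The same holds for Vps13c, a lipid transfer protein, with 1, 8, 8 and 3 peaks. Zfp638, a zinc finger protein, had 3, 10, 5 and 1, with 8 of 9 gained peaks in internal exons.

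The other 3 kept genes with the largest rise also gained peaks outside internal exons. Rassf4, a Ras-association domain protein, had 3 peaks in control, 11 with TCP, 6 with TBP and 3 with TIP, and all 7 gained peaks lay in the 3′ UTR. The peak with its best rank in the TCP list, 37, spanned chromosome 6, 116636458 to 116636607. Cx3cr1, the fractalkine receptor of monocytes and macrophages, had 2, 9, 6 and 3, with 3 gained peaks in the 3′ UTR and 4 in internal exons. Srcap, the ATPase of a complex that deposits the histone variant H2A.Z, had 4, 11, 12 and 2, with 6 of 8 gained peaks in the last exon. With the TCP list cut to the length of the control list, the 10 genes kept 16, 16, 28, 4, 6, 6, 3, 9, 6 and 8 TCP peaks, in the order named. Zfp638 then had 3 peaks in each list.

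Kept genes with fewer peaks differed by at most 4 peaks. Mbnl1, a splicing and localization factor, had 8 peaks in control and 4 with TCP, and 8 with TBP and 6 with TIP. Slc38a2, a transporter of neutral amino acids, had 7, 3, 5 and 5, and all 7 control peaks were lost, so its 3 TCP peaks lay elsewhere in the 3′ UTR. Cybb, the catalytic subunit of the phagocyte NADPH oxidase, had 8, 4, 5 and 5. Its count with TCP was the lowest of the 4 lists, as was that of Slc38a2 and of Mbnl1. Son, an RNA-binding protein of nuclear speckles, had 15, 11, 22 and 10, and the nuclear long non-coding RNA Neat1 had 5, 3, 7 and 6. Polr2m, a subunit of RNA polymerase II, had 5, 2, 5 and 2, and Ppp1cb, a protein phosphatase 1 catalytic subunit, had 5, 2, 2 and 1. Ncl, the nucleolar protein nucleolin, had 3, 1, 4 and 8, and Ctsz, a lysosomal cathepsin, and Eef2, the translation elongation factor, each had 3, 1, 2 and 1.

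**Figure D4:**
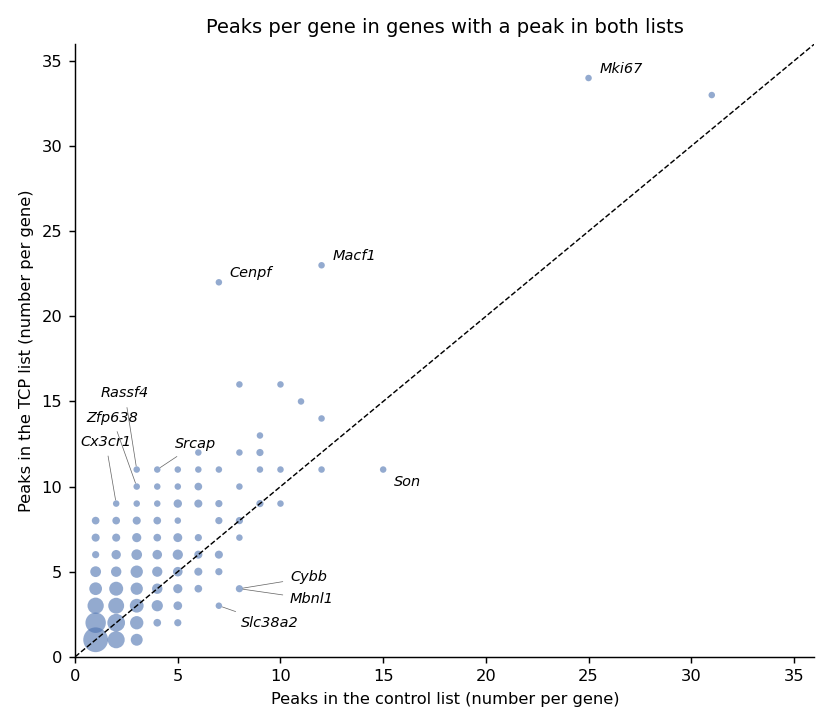
Peaks per gene in the control list (horizontal axis) and in the TCP list (vertical axis) for the 2081 genes with a peak in both; the area of a point grows with the number of genes at it, and the dashed line marks equal numbers. Cenpf (7 and 22) and Macf1 (12 and 23) stand farthest above the line, and Mbnl1, Cybb, Slc38a2 and Son, each with 4 fewer peaks, farthest below it.

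The best-ranked gained peaks in kept genes mostly lay beside control peaks. Of the leading 10, ranked 44 to 88 in the TCP list, 6 touched a control peak with 0 bp between and 8 lay within 100 bp of one. The 6 were in Sesn1 (5′ UTR) and Txnip and Slc1a5 (3′ UTR), in the last exons of Rsrp1 and Nfe2l2, and in exon 12 of 14 of Mki67. Sesn1 encodes a stress-induced inhibitor of mTORC1, Txnip an inhibitor of thioredoxin, Slc1a5 a glutamine transporter and Nfe2l2 the antioxidant transcription factor NRF2. The Nfe2l2 peak, at chromosome 2, 75676788 to 75676812, ranked 87. Ybx3, a cold shock domain protein, and Ctnnd1, the catenin p120, had gained 3′ UTR peaks 25 and 50 bp from a control peak. Farther off were the gained peaks of Ash1l, a histone methyltransferase, at 200 bp, in exon 3 of 28, and Pdia3, an ER disulfide isomerase, at 2830 bp, in the 3′ UTR. Among the leading 10 lost peaks in kept genes, ranked 16 to 61 in the control list, 2 touched a TCP peak and 9 lay in 3′ UTRs. These included 2 in Itga4, the integrin alpha 4 chain, at 150 and 325 bp from a TCP peak, and 1 in Ncl at 6588 bp and 1 in Eef2 at 2727 bp. The lost peaks of Hnrnpu, a nuclear scaffold protein, and 1 of the 2 of Ctsz touched a TCP peak, and those of H1f0, a linker histone, Neat1 and Pdia6 lay 50, 175 and 175 bp from one.

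At equal list length the excess of gained over lost peaks disappeared, as equal lengths require. Gained peaks still lay in internal exons more often than kept TCP peaks, while other differences in location were smaller. With the TCP list reduced to its 4432 best-scoring peaks, 2255 peaks (50.9%) were gained and 2244 (50.6%) lost. Of genes, 672 were gained, 27.1% of the TCP genes, and 674 were lost, 27.2% of the control genes. Among 1805 kept genes, 437 (24.2%) had more peaks and 427 (23.7%) fewer. Internal exons held 32.5% (30.5 to 34.4) of gained and 25.3% of kept TCP peaks. They held 29.1% (27.2 to 31.0) of lost and 25.6% (23.8 to 27.5) of kept control peaks, intervals that overlap. For 3′ UTRs the shares were 46.4% of gained and 52.0% of kept TCP peaks, and 50.7% of lost and 51.1% of kept control peaks. Last exons held 13.9% (12.5 to 15.4) of gained and 16.4% (14.9 to 18.0) of kept TCP peaks, intervals that overlap. The limit fell among 461 tied peaks, of which 249 were taken at random with a fixed seed. With all ties taken, 734 genes were gained and 636 lost, and with none taken 620 and 716, so which of the 2 numbers is larger rests on the ties. The genes gained at equal length keep, among others, Nav1 with 3 peaks, Gins3 with 3, Zbtb7a with 3 and Ccar1 with 3. By rank of their strongest TCP peak, the leading 10 genes gained at equal length and without a control peak at full length were Foxo3 (91), Arhgdia (99), Gpsm2 (108), Mrps27 (145), Birc5 (159), Cipc (163), Rev1 (216), Nav1 (258), Fut10 (258) and Eepd1 (296). By rank of their strongest control peak, the leading 10 lost genes were Tmsb4x (23), Malat1 (43), Pabpc1 (129), Cd164 (159), Nfkbia (196), Actb (216), Rpl4 (239), H1f3 (336), Lyz2 (430) and Dhx15 (459). The authors' lists name another nearest gene for 1 peak each of Gpsm2, Mrps27 and Birc5, which have 1 TCP peak each. They do so for 2 peaks of Rpl4, which has 2 control peaks. As for Nav1, these calls rest on the host assignment used here. Foxo3, a transcription factor of stress responses, had 0 peaks in control, 3 with TCP, 2 with TBP and 2 with TIP.

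Genes were then grouped into lists by function and read against the shares over all genes, 38.8% of TCP genes gained and 16.1% of control genes lost. For counts at equal length the shares over all genes are 27.1% gained and 27.2% lost. A list has the same control genes at equal length, while its TCP genes can be fewer there. Of the 12 genes listed for the m6A methyltransferase complex and related enzymes, 6 had a control peak and 8 a TCP peak, with 2 gained and 0 lost, and 1 of each at equal length. Rbm15, which guides the complex to RNA, had 5 peaks in control, 9 with TCP, 8 with TBP and 3 with TIP, and all 6 gained peaks lay in the first exon. Virma had 2, 5, 4 and 2 peaks and Wtap 1, 3, 2 and 1. The gained genes were Pcif1, the cap-adenosine methyltransferase, and Mettl5, a ribosomal RNA methyltransferase. Among demethylases and readers, 2 of 9 TCP genes were gained and 1 of 8 control genes was lost, and 1 of each at equal length. The lost gene was Fto, with 1 control peak and 0 in the other 3 lists. That control peak ranked 3772, at the lowest score of its list. The readers Ythdf2, with 4 control and 6 TCP peaks, and Ythdf1, with 2 and 4, gained theirs in internal exons.

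Chromatin genes mostly had peaks in both lists. The remodellers, acetyltransferases and TET enzymes had 77 peaks in control and 135 with TCP, beside 4365 and 6886 over all genes. Of their TCP genes 8 of 39 were gained, 20.5% (9.30 to 36.5), an interval wholly below the share of all genes, and 1 of 32 control genes was lost, 3.12% (0.0791 to 16.2). The gained interval holds the 34.3% gained in the longest length class, and the median span of these genes was 72.7 kb. Crebbp, the acetyltransferase CBP, had 1, 7, 2 and 2 peaks in control, TCP, TBP and TIP, Kat6a 6, 11, 7 and 5, Asxl1, a Polycomb-associated protein, 5, 11, 9 and 4, and Arid1a, a BAF complex subunit, 6, 10, 10 and 5. The histone methyltransferases and demethylases had 71 peaks in control and 101 with TCP, with 7 of 29 TCP genes gained and 1 of 23 control genes lost. Kmt2d had 10, 16, 16 and 3 peaks, with 9 of 10 gained peaks in internal exons, and Kmt2a 6, 9, 9 and 2. At equal length 7 remodeller genes were gained and 2 lost, and 4 histone methylation genes gained and 2 lost. There Crebbp, Kat6a, Asxl1, Arid1a, Kmt2d and Kmt2a had 5, 7, 5, 7, 9 and 7 TCP peaks. Kmt2d thus had fewer than in control and Asxl1 the same number.

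The machinery of microRNAs and mRNA decay had 24 control and 56 TCP peaks, with 9 of 22 TCP genes gained, 40.9% (20.7 to 63.6), and 1 of 14 control genes lost. Dicer1, the enzyme that cuts microRNA precursors, had 0, 4, 6 and 1 peaks, all 4 TCP peaks in internal exons. Tnrc6a and Tnrc6b, scaffolds of the silencing complex, had 1, 5, 2 and 1 and 3, 7, 6 and 5. Smg6, the endonuclease of nonsense-mediated decay, had 0, 3, 1 and 0, and no peak remained at equal length. There the list had 4 genes gained and 3 lost. The splicing factors and RNA helicases had 9 of 37 TCP genes gained and 9 of 37 control genes lost, and 6 gained and 11 lost at equal length. Rbm39, a splicing factor, had 1, 5, 0 and 0 peaks, and none of its TCP peaks overlapped the control peak. At equal length Dicer1, Tnrc6a, Tnrc6b and Rbm39 had 2, 4, 5 and 1 TCP peaks. Translation initiation and poly(A) genes had 8 of 23 gained and 2 of 17 lost, and 4 and 3 at equal length. Eif5, which triggers GTP hydrolysis in start-site selection, had 0, 3, 1 and 1 peaks, all 3 TCP peaks in the 3′ UTR. Of nuclear long non-coding RNAs, 0 of 4 TCP genes were gained and 1 of 5 control genes was lost, and 0 and 2 at equal length. Kcnq1ot1, an antisense transcript of an imprinted locus, had 1, 3, 3 and 0 peaks.

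Of macrophage identity genes, 2 of 14 TCP genes were gained and 3 of 15 control genes lost, and 1 and 3 at equal length. Irf8, a transcription factor of the macrophage lineage, had 0, 3, 1 and 0 peaks in control, TCP, TBP and TIP, all 3 TCP peaks in the 3′ UTR. Ptprc, the phosphatase CD45, also had 0, 3, 1 and 0, all 3 in internal exons, but none remained at equal length. Lyz2, lysozyme, had 2, 0, 1 and 0. Zeb2, a transcription factor, had 6, 9, 9 and 6 peaks and Cd14, the lipopolysaccharide co-receptor, 7, 5, 7 and 2. Toll-like receptor signalling had 40 and 59 peaks, with 4 of 15 gained and 1 of 12 lost, and 3 and 1 at equal length. Tlr13, a receptor for bacterial ribosomal RNA, had 1, 7, 4 and 1 peaks, and Tlr7, a receptor for single-stranded RNA, had 9, 12, 15 and 5. Unc93b1, which carries both receptors to endosomes, had 0, 3, 1 and 1, and Tab2, an adaptor of the kinase TAK1, had 3, 7, 6 and 2.

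The NF-kB pathway had no gained gene: 0 of 4 TCP genes were gained and 3 of 7 control genes lost, 42.9% (9.90 to 81.6), an interval that holds the 16.1% of all genes. Besides the inhibitor Nfkbia the lost genes were Traf1, an adaptor of TNF receptors, and Map3k14, the kinase of the non-canonical branch, each with 1 control peak. The control peaks of Nfkbia, Traf1 and Map3k14 ranked 196, 1905 and 3772, the last at the lowest score of the list. The counts at equal length were the same. Among cytokines and chemokines 1 of 4 was gained (Tgfb1) and 1 of 4 lost (Ccl9), and 0 and 1 at equal length. The interferon, JAK-STAT and SOCS genes had 4 of 11 gained and 2 of 9 lost, but 1 gained and 4 lost at equal length. Ifnar2, a chain of the type I interferon receptor, had 3, 6, 5 and 4 peaks, all 4 gained in the 3′ UTR, and 2 TCP peaks at equal length. Ifngr1, of the type II receptor, had 1, 0, 1 and 0. Socs3, a feedback inhibitor of cytokine receptors, had 1 TCP peak and 0 in the other lists. The MAP kinase cascade and its feedback genes had 23 control and 38 TCP peaks, with 5 of 23 gained and 0 of 18 lost (0 to 18.5%), and 4 gained and 2 lost at equal length. Map3k3 had 0, 3, 1 and 0 peaks, the p38 kinase gene Mapk14 had 1, 3, 3 and 2, and the feedback phosphatase Dusp4 had 1 TCP peak and 0 in the other lists. The PI3K, AKT, mTOR and FOXO genes had 5 of 17 gained and 1 of 13 lost, and 4 of each at equal length. Rptor, the substrate-binding subunit of mTORC1, had 3 TCP peaks and 0 in each of the other 3 lists. Inpp5d, the lipid phosphatase SHIP1, had 1, 5, 2 and 3 peaks, and Foxo1, a transcription factor held back by AKT, had 0, 2, 1 and 0.

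Stress, death and division genes had more gained than lost members in the full lists, as all genes did, and not always at equal length. The p53 and DNA damage genes had 5 of 19 gained and 0 of 14 lost, with 24 control and 45 TCP peaks, and 3 gained and 4 lost at equal length. Ccng1, a p53 target, had 0, 4, 2 and 0 peaks, the p53 ubiquitin ligase gene Mdm2 had 2, 4, 4 and 2, and Rif1, which protects broken DNA ends, had 3, 6, 10 and 1. The cell cycle genes had 6 of 18 gained and 1 of 13 lost, and 4 and 2 at equal length. The mitotic kinase genes Cdk1 and Aurka each had 2 TCP and 0 control peaks, and Aurka had none with TBP or TIP. BCL-2 family and apoptosis genes had 4 of 12 gained and 2 of 10 lost, and 2 of each at equal length. Bcl2l1, which encodes the survival protein BCL-XL, had 3, 1, 3 and 0 peaks, and the inhibitors of apoptosis Birc2 and Birc3 had 0, 2, 1 and 0 and 1, 3, 1 and 2. The ER and integrated stress genes had 7 of 23 gained and 2 of 18 lost, and 2 of each at equal length. Eif2ak3, the ER stress sensor kinase PERK, had 0, 3, 3 and 0 peaks, the ER chaperone gene Hspa5 had 4, 7, 3 and 7, and Sel1l, of ER-associated degradation, had 4, 8, 4 and 3. Pdia6, an ER disulfide isomerase, had 2, 6, 3 and 0, with no overlap between control and TCP peaks. At equal length Eif2ak3, Hspa5, Sel1l and Pdia6 had 2, 6, 8 and 1 TCP peaks.

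Of the NRF2, KEAP1 and antioxidant genes, 5 of 10 TCP genes were gained, 50% (18.7 to 81.3), and 4 of 9 control genes lost, 44.4% (13.7 to 78.8), intervals that hold the shares of all genes. At equal length 4 were gained and 5 lost. Lost were Txn1, Sod1, Slc7a11 and Fth1, which encode thioredoxin, superoxide dismutase, the cystine transporter and the ferritin heavy chain. Gained were Gclc and Gclm, the subunits of the enzyme that limits glutathione synthesis, with Txnrd1, a thioredoxin reductase, and the transcriptional partners Bach1 and Mafg. Each of these 9 genes had 1 peak in the list that holds it. Gclc had 1 peak with TCP, 1 with TBP and 0 with TIP, and Fth1 1 in control, 0 with TCP, 0 with TBP and 1 with TIP. Nfe2l2 itself had 4, 6, 5 and 3 peaks. The cholesterol, lipid and nuclear receptor genes had 6 of 18 gained and 0 of 12 lost, with 20 control and 39 TCP peaks, and 3 and 1 at equal length. Abca1, the cholesterol exporter, had 0, 2, 2 and 1 peaks, Nr3c1, the glucocorticoid receptor, 0, 3, 1 and 1, and Ncoa3, a nuclear receptor coactivator, 1, 5, 3 and 1. Lysosome and autophagy genes had 5 of 16 gained and 6 of 17 lost, and 4 and 8 at equal length. Lamp1, a lysosomal membrane protein, had 2, 0, 3 and 1 peaks, Atp6v1a, of the proton pump, 0, 3, 1 and 0, and Mitf, a transcription factor of lysosomal genes, 1, 4, 4 and 1. Atp6v1a and Mitf each had 1 TCP peak at equal length.

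Ribosomal protein genes, which are short, had the highest lost share of the lists. Of cytosolic ribosomal protein genes, 12 of 17 control genes were lost, 70.6% (44.0 to 89.7), and 5 of 10 TCP genes gained, with 23 control and 11 TCP peaks. The lower end of the interval is above the 16.1% of all genes, the 23.0% of the shortest length class and its 29.4% among genes with 1 control peak. That class reaches up to 16.6 kb, while the ribosomal protein genes with a peak had a median span of 4.17 kb. It is therefore not a match for their length, and whether length goes with the loss was not tested. At equal length 13 were lost and 1 gained. Rpl8 had 1 peak in control, 0 with TCP, 0 with TBP and 1 with TIP, and Rps9 and Rps29 had a control peak alone. Of the 5 ribosomal protein genes kept, 0 had more peaks with TCP and 3 had fewer. Ribosomal protein genes have many near-identical processed pseudogenes, and how reads with several matches were treated is not given in the sources used here, so these calls are uncertain. Of respiratory chain genes, 5 of 9 control genes were lost and 6 of 10 TCP genes gained, and at equal length 6 were lost and 2 gained. Sdhd, of succinate dehydrogenase, had 2, 0, 1 and 1 peaks, and Cox6b1, of cytochrome oxidase, 0, 1, 0 and 0.

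The actin cytoskeleton list lost 10 of 22 control genes, 45.5% (24.4 to 67.8), and gained 8 of 20 TCP genes, 40.0%, and at equal length 14 were lost and 5 gained. Besides Actb and Tmsb4x, which also have near-identical copies in the genome, the lost genes were the Arp2/3 subunits Arpc3 and Arpc5, the actin capping gene Capg, the formin gene Diaph1, the small GTPase genes Rhoa, Rac2 and Cdc42, and Vim, the intermediate filament vimentin. The gained genes included Tpm3, a tropomyosin, with 0, 2, 1 and 1 peaks in control, TCP, TBP and TIP, Wasf2, of the WAVE complex, with 0, 2, 1 and 2, and Arpc1b, another Arp2/3 subunit, with 0, 2, 2 and 0 and none at equal length. Of the 25 lists with a peak, 3 had a lost share whose interval lay wholly above that of all genes, ribosomal proteins, actin and the respiratory chain, the last with a lower end of 21.2%. Respiratory chain genes with a peak had a median span of 9.10 kb. Their interval holds the 23.0% of the shortest length class and its 29.4% among genes with 1 control peak. The gained share of 1 list, the chromatin remodellers, had an interval wholly below that of all genes, and none had one wholly above it. No p-value goes with this, because the lists were chosen with earlier results of these data known and each condition is 1 library.

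**Figure D5:**
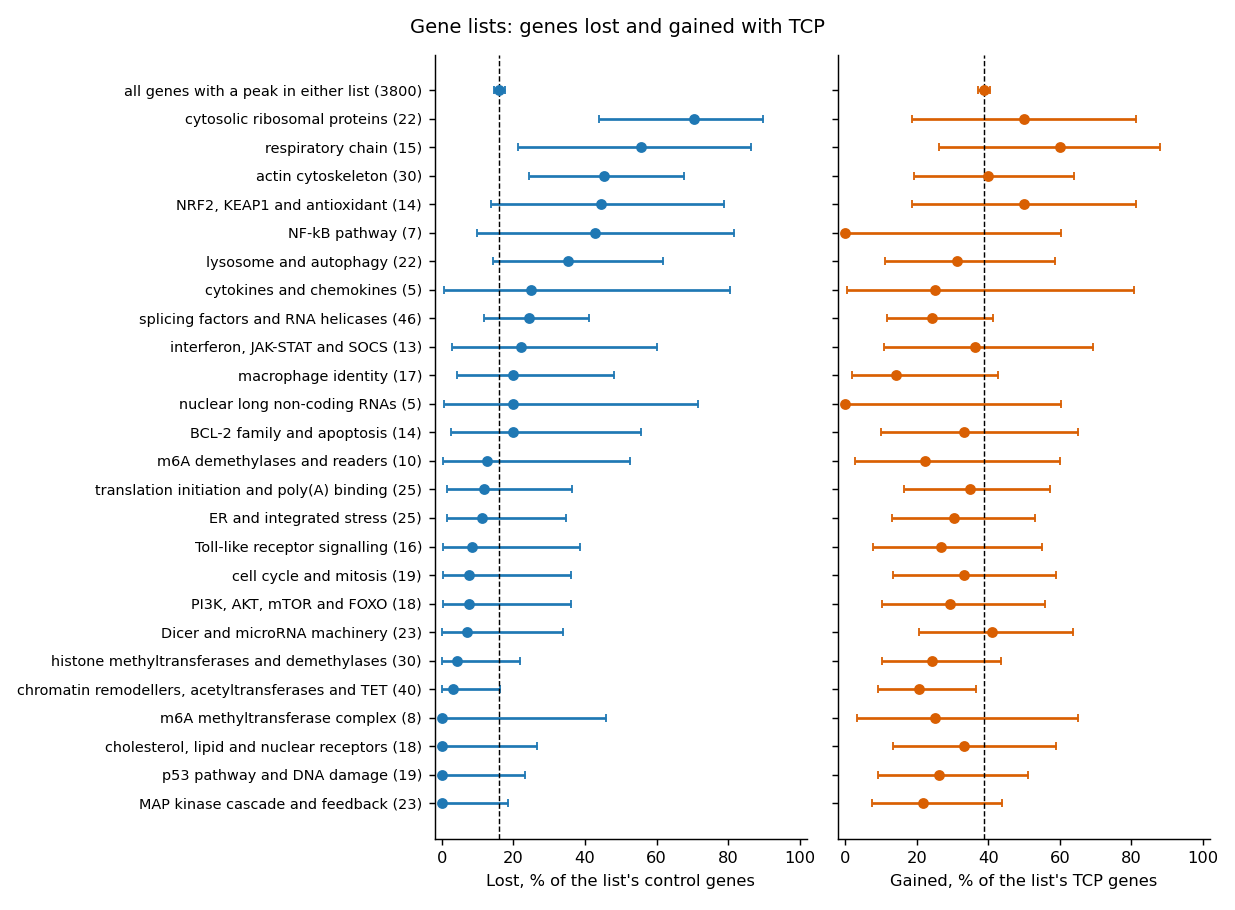
Share of each gene list's control genes that were lost (left, %) and of its TCP genes that were gained (right, %), for lists with at least 5 genes with a peak, whose number follows the name. Lines are exact 95% intervals over genes, and dashed lines mark all 3800 genes, at 16.1% lost and 38.8% gained. Ribosomal protein genes stand at 70.6% lost and MAP kinase genes at 0.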

How the data were processed

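Immunoprecipitated RNA of RAW264.7 cells was measured in 4 libraries, 1 per condition, and the control and TCP lists were compared. Per the labels' protocols, RNA of 40 to 60 nt was cut from a gel, poly(A) tailed, reverse transcribed and amplified. The submitters' processing notes name, without saying what each was used for, FastQC 0.11.9 and Trim Galore 0.6.5 (read quality and trimming tools), HISAT2 2.1.0 (an aligner), SAMtools 1.9 and Picard 2.23.5, StringTie 2.1.4 with DESeq2 1.30.1, HOMER 4.11 beside ChIPseeker 1.26, and deepTools 3.5.0. The builds named are GRCm38 and mm10. Which program called peaks, at which threshold and whether against the inputs is not given in the sources used here. Per the file headers, each peak was deposited with position, strand, width, annotation, nearest gene and a score of no stated scale, which was used for ranks within a list.

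Overlaps were computed with bedtools 2.31.1 in Python 3.11.15 (pandas 2.3.3, scipy 1.17.1) and tested on simulated data. The host gene came from the deposited exon annotation (45.2% of peaks), else the deposited nearest gene holding the peak on its strand (18.3%), else a RefSeq gene over it (35.1%). No gene was found for 1.42%, and the host differed from the nearest-gene column for 22.9% of placed peaks. Among named genes it differed most often for Srcap (10 peaks), Arid1a (9) and Nav1, Ifnar2 and Nfe2l2 (6 each), and for fewer peaks in others. Small RNA genes were passed over. The members and the 28 gene lists (1030 symbols, 1029 matched) were chosen with earlier results of these data known. The rule for names takes the 10 genes gained or lost with the most peaks, the 10 kept genes with the largest rise and fall, the 10 best-ranked gained and lost peaks in kept genes and gained or lost genes at equal length, and up to 5 members per list, without unnamed genes and pseudogenes. Further list members named with their calls or counts were picked after their values were seen. Alternatives changed the overlap, strand, wide peaks, score, list length, neighbouring peaks, gene column, gene call and ties. Lists carry no depth, so no detection limit can be given.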

Additional observations from a re-analysis of the deposited data

How the results depend on the processing

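A share or median percentile was taken as moved when it left the 95% interval of the reported value, and a count when it differed by over 1.5 times. By these rules 21 values moved and 75 did not. The 75 include all with an overlap of at least 50% of the shorter peak, overlap on either strand, peaks over 500 bp left out, the nearest-gene column and the handling of ties. With peaks up to 100 bp apart counted as shared, 51.7% of TCP peaks were gained and 28.5% of control peaks lost, the median kept TCP peak stood at percentile 30.5, and 1859 gained peaks lay in kept genes, against 2747. With neighbouring peaks merged the shares were 62.0% and 41.0%. With peaks at or above each list's median score they were 60.2% and 36.3%, internal exons held 31.4% of gained and 24.4% of lost peaks, 1058 gained peaks lay in kept genes, 432 kept genes had more and 132 fewer peaks, and 970 genes were gained and 272 lost. With both lists at the length of the shortest of the 4, the shares were 46.4% and 46.3%, internal exons held 26.1% of lost peaks, 818 gained peaks lay in kept genes, 285 kept genes had more and 276 fewer peaks, and 511 genes were gained and 529 lost. These settings leave fewer peaks in both lists. With at least 2 peaks asked of a gene, 280 were gained and 41 lost. At the length of the control list, 70 list members were gained and 100 lost, against 123 and 69 at full length, so the balance turned. No paired analysis was possible because each condition has 1 library and the labels give no replicate numbers, and for the same reason no replicate could be left out. Peaks over 500 bp do not enter the sequence reading, so leaving them out gave no further value for it.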

Other observations

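Some genes with TCP peaks dropped out when the TCP list was reduced to the length of the control list. Slc38a2 (7 control and 3 TCP peaks), Socs4, a suppressor of cytokine signalling (2 and 4), and Brca2, of homologous recombination (2 and 4), had peaks in both full lists and 0 TCP peaks at equal length. Paip1 and Wdr33, which act with the poly(A) binding and cleavage machinery, each had 2 TCP peaks at full length and 0 at equal length. Others stayed: the cholesterol synthesis gene Sqle, squalene epoxidase, had 1 control and 3 TCP peaks, with both gained peaks in the 5′ UTR, and all 3 were among the best-scoring 4432. Kif20b, a mitotic kinesin, had 1 control and 3 TCP peaks, and Birc3 also had 1 and 3, and for both all 3 stayed. Kmt5a, a histone H4 methyltransferase, had 0 control, 2 TCP, 0 TBP and 0 TIP peaks, both in the 3′ UTR, of which 1 stayed. Eepd1, a nuclease, had 0, 2, 1 and 2 peaks in control, TCP, TBP and TIP, both TCP peaks in internal exons, of which 1 stayed at rank 296.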
